A study of Mus with 438 samples.

Results

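The proteasome subunit genes of mouse cone and rod photoreceptors were chosen by name, as the Psma, Psmb, Psmc, Psmd, Psme, Psmf and Psmg symbols of the expression table. The rule matched 44 of the 10390 genes listed. Psmc3ip was set aside, since it encodes a meiotic recombination factor and no subunit. The other 43 genes comprised 14 of the core particle (7 alpha and 7 beta), 25 assigned to regulators and 4 others. The regulator genes were 6 ATPases, 11 non-ATPase subunits, 3 chaperones of regulator assembly (Psmd5, Psmd9, Psmd10) and 5 activators (Psme1, Psme2, Psme2b, Psme3, Psme4). The others were the inhibitor Psmf1 and the core assembly chaperones Psmg1, Psmg2 and Psmg3. The immunoproteasome genes Psmb8, Psmb9 and Psmb10 and the testis alpha gene Psma8 were not among the symbols that the rule matched, so they were not analysed here.

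The proteasome is the cell's main machine for degrading proteins tagged with ubiquitin. Its core is a barrel of alpha and beta rings, and the proteolytic sites lie on Psmb5, Psmb6 and Psmb7. A regulatory cap binds ubiquitin chains, removes them through Psmd14, and uses its Psmc ATPases to unfold substrates and thread them into the core. Activators of the Psme family can take the place of the cap without using ATP. Photoreceptors make large amounts of outer segment protein, and their dependence on proteasome capacity has been studied in retinal degeneration.

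Each RNA library came from 1 fluorescent cell picked by hand, and the cones came from a piece of superior or inferior retina. The rod labels name no zone. Control cones carried 1 Trb2Cre allele and the Ai6 reporter (Trb2Cre-het:Ai6), knockout cones were Trb2Cre-KO:Ai6 at 2 months, and rods were tgNrl:gfp at 2 months, where gfp marks the cells. The controls thus also carried the Cre allele, all were on a C57BL/6 background, and Ai6 fluorescence marks cells with Cre activity. The series also holds open-region (ATAC) samples labelled control and knockout at P30. Its receptor-binding samples at E18 were labelled as tagged receptor or control. Control cones were collected at P2, P8, P21, P60 and 2 months in both zones, with 26, 24, 24, 26 and 53 superior cells and 30, 24, 24, 21 and 50 inferior cells. Knockout cones numbered 50 superior and 48 inferior cells, and there were 29 rods. The labels name no animal, so the cells of 1 age, zone and genotype were taken as 1 sample. No p-value was computed over cells, and any spread over cells is not a replicate error.

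Median depth per group was 1.74e+06 to 3.25e+06 reads from P2 to P60, and 1.09e+07 to 1.83e+07 in the 2-month collections. The median gene was at 5.54 (log2 of mean CPM, read counts scaled to library size) in P2 superior cones, 5.05 in 2-month superior cones and 4.08 in rods. Cone markers summed to 1.02e+04 to 1.10e+05 CPM in cone groups and 99.3 CPM in rods. Rod markers summed to 1.29e+05 CPM in rods and 533 to 2.05e+04 CPM in cones. Müller glia markers (7 of 9 listed genes present) summed to 376 to 1280 CPM in cones and 2889 CPM in rods. Their part in the results was not tested. Thrb, the targeted receptor gene counted over all of its transcripts, averaged 213 and 170 CPM in superior and inferior 2-month controls and 43.2 and 33.9 CPM in knockout cones.

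Proteasome transcripts were found in every group of cells. The 14 core genes summed to 829 to 1851 CPM per cell on average in control cones, and the 25 regulator genes to 2215 to 4029 CPM. In control superior cones the core sum averaged 1598 CPM at P2, 1851 at P8, 829 at P21, 1026 at P60 and 1584 at 2 months. In inferior cones the same sums were 1269, 1245, 1060, 1099 and 1636 CPM. The P21 superior group was the lowest and the P8 superior group the highest. At P21 in superior retina the cells ran from 472 over a median of 801 to 1368 CPM, and at P8 from 856 over 1662 to 3944 CPM, so the ranges of the cells overlapped. Regulator sums had their lowest values at P21 as well, with 2440 CPM in superior and 2215 CPM in inferior cones. The highest regulator sum was in 2-month inferior control cones (4029 CPM). Reads of the core were 24.4% of the summed CPM of both classes in P60 superior cones and 34.6% in P8 superior cones, the ends of the range over control groups.

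**Figure D1:**
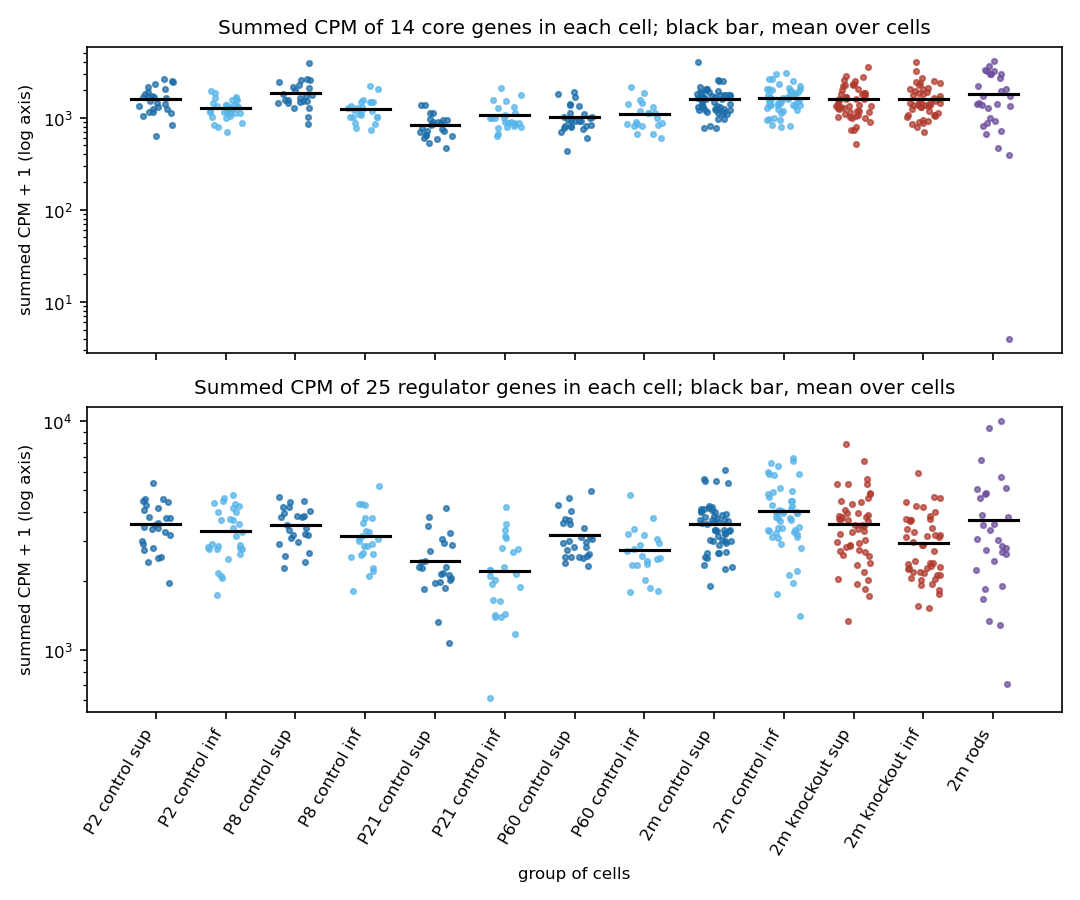
Summed CPM of the 14 core genes (upper panel) and the 25 regulator genes (lower panel) in each cell, on log axes after adding 1 CPM, by group (dark and light blue, superior and inferior controls; red, knockout; purple, rods). Black bars are means over cells. Core means dip at P21 (829 and 1060 CPM), and 1 rod lies far below all other cells at 2.99 CPM.

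Among the 10 control groups, proteasome genes had smaller standard deviations than the median gene of the table. The standard deviation of log2(mean CPM + 1) over the 10 groups had a median of 0.499 over the 42 proteasome genes whose mean reached 5 CPM. The same median was 0.844 over the 10136 genes passing that filter, and 0.722 over the 7173 genes with means of 20 to 500 CPM. Core genes had a median of 0.462 and regulator genes of 0.517. Psmd8, a lid subunit of the regulator, was the steadiest, with group means between 199 CPM at P2 and 321 CPM at P8. The ATPases Psmc5 (156 to 268 CPM) and Psmc4 (140 to 257 CPM) came next. At the other end stood the activator Psme4 (0.67 to 45.8 CPM) and the lid subunit Psmd6 (17.03 to 137 CPM). Psme1, which did not pass the filter, was listed at 0 in all cells of 3 control groups and reached 12.3 CPM at most.

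Pairwise correlations were higher among core genes than among regulator genes, as a description without a test. The median Pearson r between pairs of core genes over the 10 control groups was 0.525, that between pairs of regulator genes 0.274, and that between core and regulator genes 0.323. Over all pairs of genes tested it was 0.0393. These values describe 10 group means in which the zones of a collection share age but not always depth. At P8 the median depth was 3.06e+06 reads in superior and 2.16e+06 reads in inferior cones. The part of age and depth in these correlations was not tested. Within groups, the core and regulator sums of single cells had r between -0.07 (P21 superior) and 0.62 (P8 superior) on the log2 scale.

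**Figure D2:**
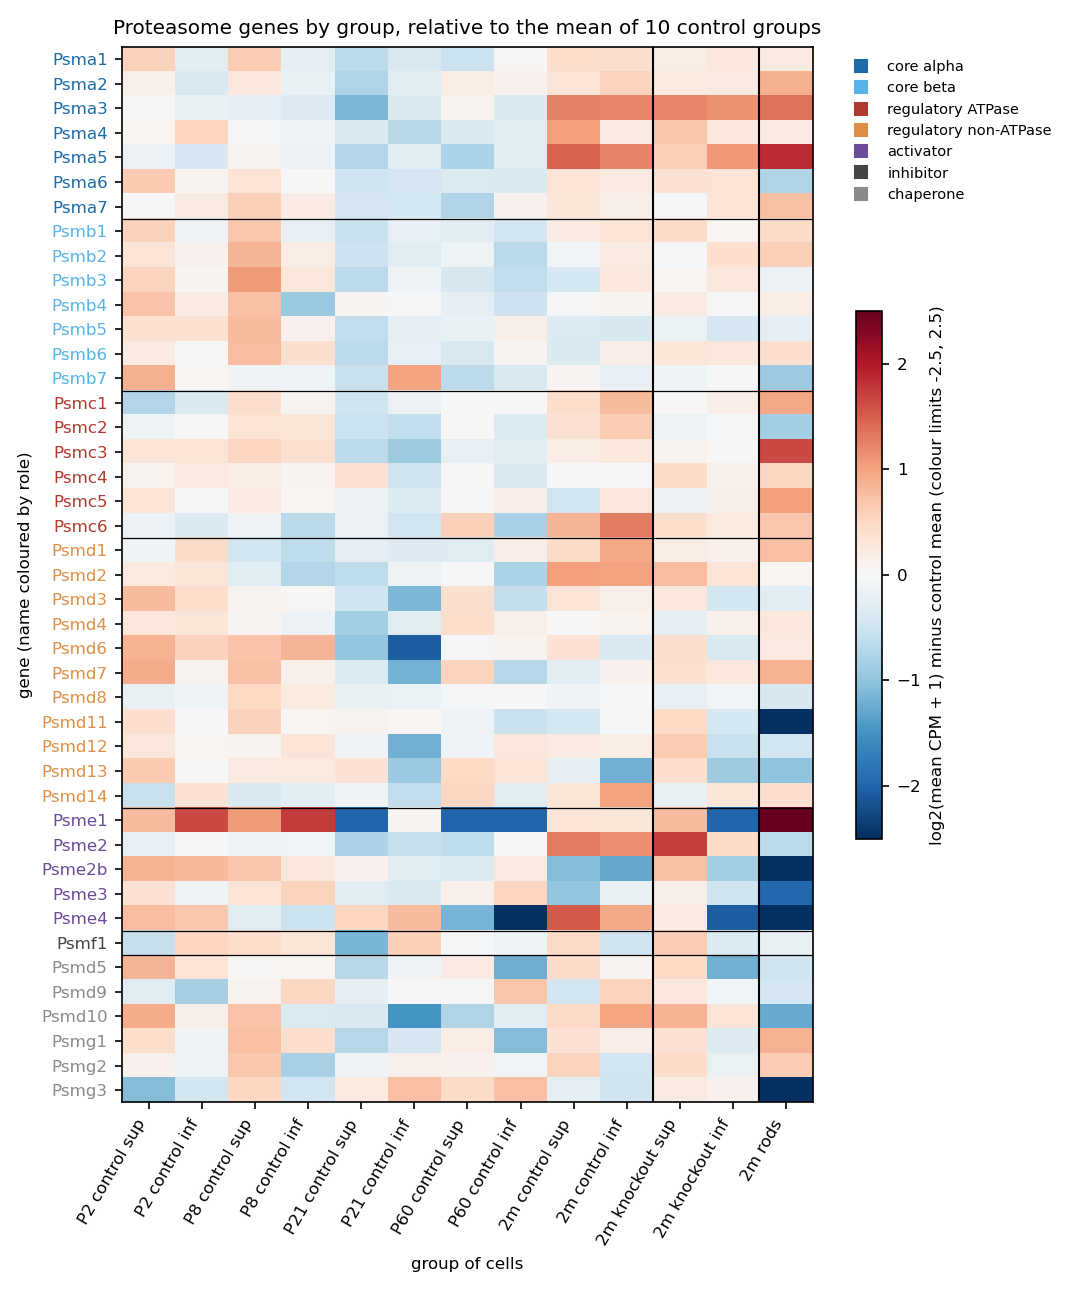
log2(mean CPM + 1) of the 43 proteasome genes in 13 groups of cells, minus each gene's mean over the 10 control groups, with gene names coloured and ordered by role. The P21 columns are mostly blue, Psma3 and Psma5 are red in the 2-month collections, and the darkest blue fields include Psmd11, Psme2b, Psme4 and Psmg3 in rods and Psme4 in P60 inferior cones.

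The first question was whether proteasome genes change as cones mature. On the slope of log2 value against log2 age over the 5 control collections, 0 of 42 proteasome genes passed the threshold (limma, Benjamini-Hochberg adjusted p under 0.05), and 0 had an unadjusted p under 0.05. Of the 10136 genes tested, 2.5% passed (1.37% up and 1.12% down), and 18.3% had an unadjusted p under 0.05. The zones of a collection were averaged before this fit, so each of the 5 collections entered as 1 value. Without P2 or without 2 months, 1 and 2 of the 10136 genes passed. The median slope was -0.06 per doubling of age over proteasome genes and -0.09 over all genes. Psme2b had the lowest slope (-0.31, SE 0.16, limma adjusted p = 0.308), then Psmd6 (-0.20, SE 0.15, limma adjusted p = 0.492). Psmg3 (0.17, SE 0.17, limma adjusted p = 0.622) and Psmc6 (0.16, SE 0.11, limma adjusted p = 0.465) had the highest. With the medians of the groups set equal, the proteasome median turned to 0.04 and the median of all genes to 0.01.

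Many members were high at P8, low at P21 and higher again in the last collection, an order that a slope does not capture. In superior cones all 14 core genes were lower at P21 than at P8, where 54.5% of all genes were, with a median P8 over P21 log2 ratio of 1.02 against 0.13 over all genes. In inferior cones 11 of 14 were lower, where 58.7% of all genes were, with a median of 0.26 against 0.22. A size rule was used where each side had 1 collection: a gene was called where (mean CPM + 1) differed 2-fold or more, the same way round in superior and in inferior cells, with no test. By this rule 5 of 43 genes were higher at P8 than at P21, where 7.67% of all genes were, and 0 of 43 were lower, where 4.71% of all genes were. They were Psmd6, Psmd7, Psmc3, Psmd10 and Psme1. Psme1 (P8 means 7.33 and 12.3 CPM, P21 means 0 and 3.15 CPM) reached the filter of 5 CPM only through P8, and its call carries no weight, which leaves 4 of 42.

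Psmd6 stood out at P21. It averaged 122 CPM in P8 superior and 134 CPM in P8 inferior cones, and 37.7 and 17.03 CPM at P21. The median cell held 112 and 141 CPM at P8, and 0.28 and 0 CPM in the P21 groups. At P21, 6 of 24 superior cells (95% exact binomial interval 9.77% to 46.7%) and 3 of 24 inferior cells (2.66% to 32.4%) were over 10 CPM, against 19 and 18 of 24 at P8. P60 cones were at 71.2 and 78.6 CPM. Psmc3, an ATPase of the cap, averaged 250 and 224 CPM at P8 and 109 and 91.9 CPM at P21. Psmd7, the partner of Psmd14 in the lid, averaged 145 and 95.2 CPM at P8 and 68.3 and 37.7 CPM at P21.

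No member set P2 cones apart from all 3 later collections by the size rule. Against P21, P60 and 2 months in both zones, 0 of 42 genes were 2-fold higher (5.68% of all genes were) and 0 were 2-fold lower (3.41% of all genes were). Psmd6 was at 137 and 111 CPM at P2, above both P21 values, and at 95.9 and 57.0 CPM at 2 months. With P21 and P60 alone as the reference, 0 of 42 were higher at P2 (8.05% of all genes were) and 1 of 42 was lower (4.45% of all genes were). That gene was Psmg3, lower at P2 (9.35 and 14.9 CPM) than at P21 (24.9 and 35.98 CPM) and P60 (29.6 and 35.9 CPM), and the 2-month values of 17.4 and 14.4 CPM kept it out of the call. Over single cells, the number of core and regulator genes over 10 CPM, of 39, had medians of 28.5 and 28.5 at P2, 29 and 27 at P8, 22 and 20.5 at P21, 25 and 24 at P60 and 26 and 22 at 2 months. The P21 groups also had the fewest genes above 0 among control groups, with medians of 3884 and 3742, and the lowest median depths. Their part in the low P21 values was not tested.

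**Figure D3:**
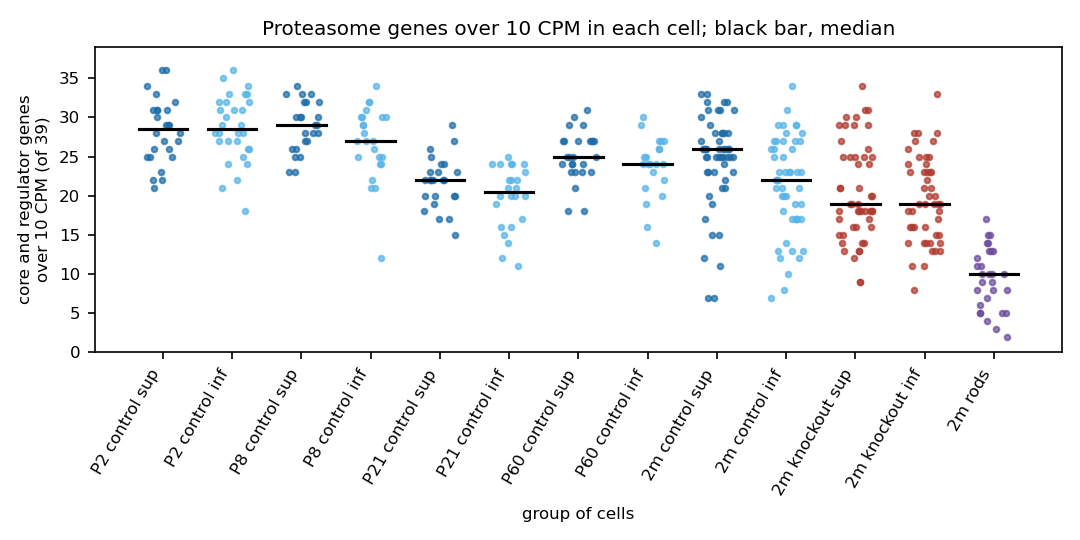
Number of the 39 core and regulator genes over 10 CPM in each cell by group (colours as for superior, inferior, knockout and rod cells in the plot of summed CPM), with black bars at group medians. Medians run from 28.5 at P2 to 20.5 in P21 inferior cones, 19 in both knockout groups and 10 in rods.

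Control cones of nearly the same age but from different collections, P60 and 2 months, differed for several members. In both zones 6 of 42 genes were at least 2-fold lower at P60, where 6.14% of all genes were. Higher at P60 were 0 of 42, where 6.17% of all genes were. The 6 were Psma3, Psma5, Psmd2, Psmd10, Psme2 and Psme4. Psme4 (0.67 CPM in P60 inferior and 45.8 CPM in 2-month superior cones) reached the filter of 5 CPM only through 2 months, so its call carries no weight. Psma3, an alpha ring subunit (chromosome 12, 70969283 to 70995877, GRCm38.p6), averaged 122 and 89.2 CPM at P60 and 277 and 270.5 CPM at 2 months. Its cells ran from 0 over a median of 108 to 360 CPM in P60 superior and from 0.19 over 285 to 721 CPM in 2-month superior cones. Its level at 2 months was above that in each of the other 8 control groups (52.4 to 122 CPM).

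Psma5, another alpha subunit, averaged 24.7 and 35.4 CPM at P60 and 123 and 105 CPM at 2 months, where its other control groups lay between 25.8 and 46.3 CPM. Psmd2, the large scaffold subunit of the cap base, averaged 242 and 139 CPM at P60 and 496 and 489 CPM at 2 months. Psma3, Psma5, Psmd2 and Psme2 were also 2-fold higher at 2 months than at both P21 and P60, 4 of 42 where 2.72% of all genes were, and 0 of 42 were lower, where 2.44% of all genes were. All 7 alpha genes were higher at 2 months than at P60 in both zones, where 45.4% (superior) and 46.9% (inferior) of all genes were. Their median log2 differences were 1.06 and 0.50, against -0.11 and -0.09 over all genes. Median depth was 2.00e+06 and 2.22e+06 reads at P60 and 1.26e+07 and 1.36e+07 reads at 2 months, and collection and depth cannot be told apart. Knockout cones and rods of the 2-month collections had Psma3 at 270, 250 and 295 CPM.

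The catalytic subunits shared the high at P8 only in part. Psmb6 averaged 179 and 156 CPM at P2, 264 and 203 at P8, 97.6 and 134 at P21, 119 and 162 at P60 and 120 and 175 at 2 months. The lowest P8 cell was at 70.0 CPM in superior and at 54.7 CPM in inferior cones, while 5 of 24 P21 superior cells were at 0. Psmb5 averaged 129 and 129 CPM at P2, 172 and 107 at P8, 64.4 and 83.5 at P21, 86.7 and 110 at P60 and 78.0 and 74.5 at 2 months. Psmb7 ranged between 21.5 CPM in P60 superior and 70.1 CPM in P21 inferior cones. Its P21 inferior mean of 70.1 CPM held a cell at 525 CPM, and the median cell there was at 42.5 CPM. CPM is not scaled to transcript length, so levels of different genes are not ranked here.

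Superior and inferior cones were compared next, since they differ in their opsins. With the collection as a block, 0 of 42 proteasome genes passed the threshold (limma, adjusted over 10136 genes), and 0% of all genes did. At an unadjusted p under 0.05 there were 3 of 42, where 7% of all genes were. On recovered reads edgeR called 0 of 42 members and 0 of 10136 genes. DESeq2 called 0 of 42 members and 236 of 10136 genes. The 3 were Psmd7 (log2 difference 0.63 higher in superior, SE 0.26, limma adjusted p = 0.708), Psmd13 (0.61, SE 0.25, limma adjusted p = 0.704) and Psmd3 (0.44, SE 0.19, limma adjusted p = 0.708). All are non-ATPase subunits of the cap. The lowest difference was that of the chaperone Psmd9 (-0.38, SE 0.31, limma adjusted p = 0.832). The median difference was 0.09 over the proteasome genes and 0.10 over all genes.

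Psmd3 was the only member higher in superior cones in all 5 collections, 1 of 42 where 4.96% of all genes were. It averaged 232 CPM in superior and 183 CPM in inferior cones at P2, 142 and 137 at P8, 94.1 and 60.6 at P21, 176 and 88.0 at P60 and 168 and 146 at 2 months. Knockout cones had 160 and 96.3 CPM. A cell at 1377 CPM stood in the P21 superior group, where 17 of 24 cells were at 0. Without that cell the P21 superior mean would lie below the inferior mean, so the order at P21 rests on 1 cell. No member was lower in superior cones in all 5, where 2.83% of all genes were.

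Collection by collection, the core genes lay on different sides. At P8, 13 of 14 core genes were higher in superior cones, where 52.4% of all genes were, with a median log2 difference of 0.41 against 0.05. At P2, 11 of 14 were higher, where 49.5% of all genes were, with a median of 0.39 against 0. At P21, 3 of 14 were higher, where 54.4% of all genes were, with a median of -0.36 against 0.10. At P60 and 2 months 7 and 8 of 14 were higher, where 56.2% and 55.9% of all genes were. At P2, P60 and 2 months 0 of 14 were past 2-fold either way. Of all genes, 11.2%, 19.8% and 17.4% were past it above and 13%, 12.7% and 9.13% below. At P8, 1 of 14 was past it above (14.5% of all genes were), and at P21 1 of 14, Psmb7, below (16.1% of all genes were). Each collection gives 1 pair of groups, so these counts have no test.

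Psmb4, a beta ring subunit, had the largest P8 difference of the core (1.66). It averaged 115 CPM in P8 superior cones, from 0 over a median of 88.0 to 331 CPM, and 35.6 CPM in P8 inferior cones, from 0 over 19.1 to 230 CPM. At P21 its zones were at 72.4 and 66.9 CPM. Psma1 was at 178 and 96.4 CPM at P2 and 185 and 101 CPM at P8. Its P21 means were 75.1 and 90.1 CPM. Psmb6 was higher in superior cones at P2 and P8 and lower in the 3 later collections, and no other member had that split of signs. Of the regulator genes, 15, 16, 16, 13 and 10 of 24 were higher in superior cones from P2 to 2 months. Of all genes, 49.5%, 52.4%, 54.4%, 56.2% and 55.9% were.

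**Figure D4:**
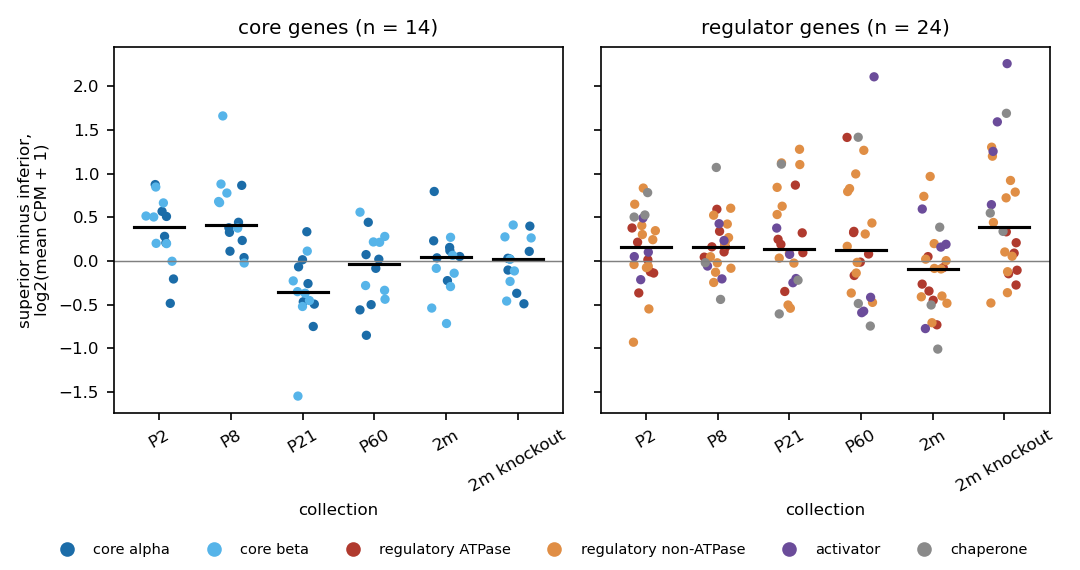
Zone difference (superior minus inferior, on log2(mean CPM + 1)) for each of the 14 core genes (left) and the 24 regulator genes passing the filter (right), by control collection and in 2-month knockout cones. Points are genes coloured by role, and black bars are medians. The core medians are 0.39 at P2, 0.41 at P8 and -0.36 at P21, and the regulator median is highest in knockout cones at 0.39.

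Loss of the receptor was compared with control cones at 2 months. Core sums were close: its summed CPM was 1576 (superior) and 1596 (inferior) in the knockout and 1584 and 1636 in controls. The median log2 ratio of the 14 core genes was -0.01 in superior and -0.00 in inferior cones, and 0 of 14 were past 2-fold in both zones. Regulator sums of superior cones were 3559 CPM in the knockout and 3553 CPM in controls, and those of inferior cones 2922 and 4029 CPM. In inferior cones 19 of 24 regulator genes were lower in the knockout, where 4381 of 9752 genes were, with a median of -0.61 against 0.11 over all genes. In superior cones 11 of 24 were lower, where 4896 of 9752 genes were, with a median of 0.04.

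In inferior cones 5 of 6 ATPases, 8 of 11 non-ATPase subunits and 3 of 4 activators passing the filter were lower in the knockout, with medians of -0.44, -0.40 and -0.49. Psmc4 (194 CPM in controls, 217 CPM in knockout) and Psmd7 (94.4 and 106.5 CPM) were among those higher. The ATPase Psmc6 averaged 237 CPM in control and 114 CPM in knockout inferior cones, Psmc1 361 and 235 CPM, and Psmc2 376 and 239 CPM. The proteasome deubiquitinase Psmd14 was at 136 CPM in control and 82.4 CPM in knockout inferior cones, and at 83.1 and 58.7 CPM in superior cones. Psmd5 was at 130 and 53.6 CPM in inferior and at 170 and 175 CPM in superior cones. P60 inferior control cones, with a regulator sum of 2723 CPM, lay below the knockout.

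By the size rule 1 of 42 genes was lower in knockout cones of both zones, where 3.65% of all genes were, and 0 were higher, where 4.47% of all genes were. That gene was Psme4, the activator also called PA200 (chromosome 11, 30771775 to 30881150). Its control means were 45.8 CPM (superior) and 30.0 CPM (inferior), and 17.6 and 2.88 CPM in the knockout. A single superior control cell at 1542 CPM held 63.5% of its group's sum, and 9 of 53 control and 8 of 50 knockout superior cells were over 10 CPM. Without the highest cell of each group the superior means were 17.02 and 11.9 CPM and the call was lost. P60 control cones had 6.18 and 0.67 CPM, below the knockout. Against P60 controls, Psme4, Psma3 and Psma5 were higher in knockout cones, 3 of 42 where 5.99% of all genes were. Lower were 0 of 42, where 4.9% of all genes were. Psme4 reached the filter of 5 CPM there only through the knockout, so its call against P60 carries no weight.

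Within knockout cones, 18 of 24 regulator genes were higher in the superior zone, where 50.3% of all genes were, and 6 of 24 by over 2-fold, where 13.7% of all genes were, with a median log2 difference of 0.39 against 0.00 over all genes. The largest were Psme4 (2.26), Psmd5 (1.69), Psme2b (1.59), Psmd13 (1.30), Psme2 (1.25) and Psmd12 (1.20). Psmd12, a lid subunit, averaged 167 CPM (superior) and 72.1 CPM (inferior) there, and 123 CPM in both control zones. The core genes were split 8 of 14 with a median of 0.02. The interaction of genotype and zone was not tested, since the knockout has 1 collection.

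Per cell, fewer of the 39 genes passed 10 CPM in knockout cones, with medians of 19 in both zones against 26 and 22 in controls. Over all genes, the median knockout cell also had fewer above 0, with 5072 (superior) and 5260 (inferior) against 5824 and 5782 in controls. The part of this in the lower counts was not tested. Averages of log values over cells, which weigh cells without a transcript more, put Psmc1, Psmc2 and Psmc6 past 2-fold lower in both zones, 3 of 42 where 2.95% of all genes were, and then left Psme4 out.

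The activators differed in how steady they were. Psme3, which forms the nuclear activator of the core, averaged 66.5 to 193 CPM in control groups, 145 and 92.1 CPM in knockout cones and 32.8 CPM in rods. Psme1 and Psme2 form the interferon-inducible activator. Psme2 averaged 6.73 to 12.4 CPM in the P2 to P60 control groups and 31.5 and 28.1 CPM at 2 months. Psme2b, a near-identical copy of Psme2, had 18.7 to 44.8 CPM in the P2 to P60 groups and 10.8 and 9.35 CPM at 2 months. Reads of such copies can be divided between them differently at each read depth or length, and their sum was 26.3 to 55.6 CPM at P2 to P60 and 42.3 and 37.5 CPM at 2 months. The calls of Psme2 and Psme2b alone are therefore uncertain. In superior knockout cones their sum was 83.7 CPM.

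Psmf1, which binds the core and inhibits it in vitro, averaged 33.6 to 115 CPM in control groups, with medians at or near 0 in most. At P2 its superior and inferior means were 49.8 and 110 CPM, at P21 33.6 and 115 CPM and at 2 months 106 and 53 CPM, so the zone order turned between collections. Knockout cones had 117 and 58.9 CPM.

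Rods and cones of 2 months had similar summed levels but a different spread over cells. The core sum averaged 1818 CPM in rods against 1584 and 1636 CPM in cones, and the regulator sum 3705 CPM against 3553 and 4029 CPM. Rod cells ran from 2.99 over a median of 1458 to 4127 CPM for the core, where superior cones ran from 769 over 1580 to 4054 CPM. The median rod had 10 of 39 genes over 10 CPM, and the highest rod had 17. Over all genes the rods had 3893 genes above 0 in the median cell and cones 5824 and 5782, although rods were read more deeply.

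**Figure D5:**
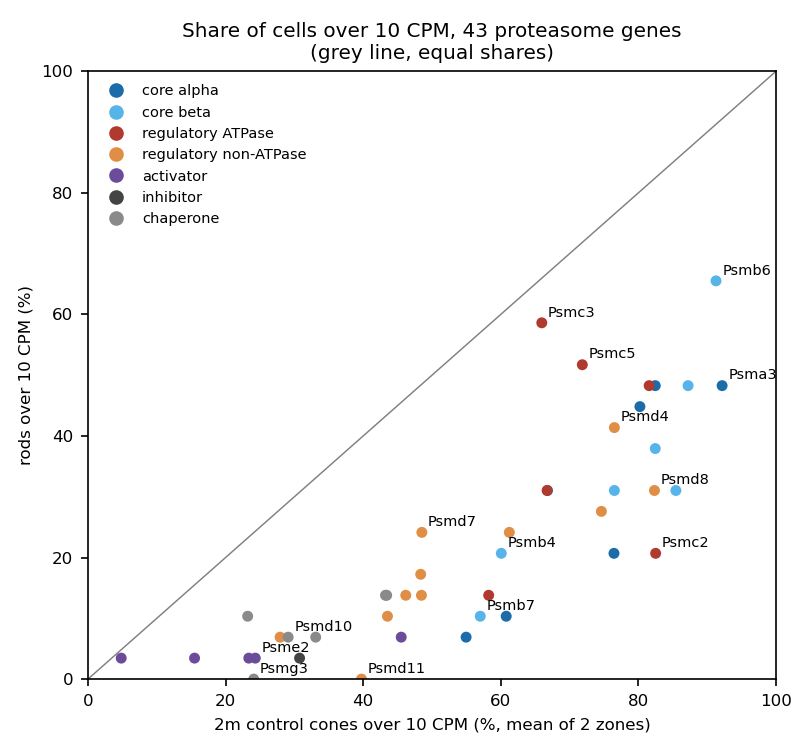
Share of rods over 10 CPM (y axis, 29 cells) against the mean share of 2-month control cones over 10 CPM (x axis, 53 superior and 50 inferior cells) for the 43 proteasome genes, coloured by role, with a grey line at equal shares. Psmc3 and Psme1 lie close to the line, Psmb6 has the highest share in rods (65.5%), and Psmd11 and Psmg3 lie at 0.

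By the size rule, 7 of 43 genes were lower in rods than in both cone groups, where 42.1% of all genes were, and 2 of 43 were higher, where 8.33% of all genes were. The median log2 ratio of the core genes was 0.23 and 0.12 against superior and inferior cones, while that of all genes was -0.86 and -0.72. Lower were Psmc2, Psmd10, Psmd11, Psme2, Psme2b, Psme4 and Psmg3, and higher were Psmc3 and Psme1. Psme1 reached the filter only through the rods, so its call carries no weight and 1 of 42 is left. Psmd11, Psme2b, Psme4 and Psmg3 reached it only through the cones, so their lower calls carry no weight either. Where log values were averaged over cells, 33 of 43 genes were lower and 0 higher, beside 41.3% and 1.11% of all genes. Whether most members were called lower than in cones thus depended on whether CPM or log values were averaged over cells. Psmd11 and Psmg3 were lower with averaged logs, pooled reads, other pseudocounts, equal medians, the highest cell left out and P60 cones as the reference. These settings use the same filter rule, so they add no weight to the calls. Against P60 cones 5 of 42 were lower (Psmd11, Psmd13, Psme2b, Psme3 and Psmg3), where 43% of all genes were. Higher were 4 of 42 (Psma3, Psma5, Psmc3 and Psme1), where 9.9% of all genes were. Psmd11, Psme2b and Psmg3 again reached the filter only through the cones, and Psme1 only through the rods.

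Psmd11, a lid subunit whose dosage is known to set proteasome assembly in stem cells (chromosome 11, 80428615 to 80473248), had the largest difference of the ATPase and non-ATPase genes. It averaged 64.1 CPM (superior) and 85.6 CPM (inferior) in 2-month cones, where 22 of 53 and 19 of 50 cells were over 10 CPM. In rods it averaged 0.38 CPM, with 27 of 29 cells at 0 and the highest cell at 8.67 CPM. No rod was over 10 CPM, which allows a share of up to 10.3% of rods by a limit of 3 cells, and of up to 11.9% by the exact binomial interval. Every group of cones, knockout included, averaged between 58.9 and 130 CPM. Among all genes at 50 to 100 CPM in both groups of 2-month cones, 14.7% (144 of 977) had no rod over 10 CPM, and of the proteasome genes at that level Psmd11 was the only 1 of 8. Psmg3, a core assembly chaperone, averaged 17.4 and 14.4 CPM in cones, and 28 of 29 rods were at 0. Of all genes at 10 to 30 CPM in both groups of cones, 36.1% (554 of 1534) had no rod over 10 CPM.

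Psmc3, higher in rods, rested on many cells. It averaged 542 CPM in rods, from 0.40 over a median of 347 to 2778 CPM, and 196 and 207 CPM in cones, with medians of 163 and 172 CPM. It passed 10 CPM in 17 of 29 rods (95% exact binomial interval 38.9% to 76.5%) and in 36 of 53 superior cones (53.7% to 80.1%). Without the highest rod the mean was 462 CPM. Psmc3 was not called higher with averaged logs or at 4-fold. Psme1 was called higher because of 1 rod at 855 CPM that held 99.9% of the sum, and 22 of 29 rods were at 0. Psme2, Psme2b and Psmf1 in rods likewise rested on 1 cell each over 10 CPM. Psmc2 averaged 133 CPM in rods and 312 and 376 CPM in cones, and 6 of 29 rods were over 10 CPM against 44 of 53 superior cones.

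Among proteasome genes with 100 to 300 CPM in both groups of 2-month cones, 0 of 17 lacked a rod over 10 CPM and the median gene had 11 such rods. Over all genes at that level, 6.04% lacked one and the median gene had 5 such rods.

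Of 50 further genes of the pathway (assembly factors, ubiquitin, shuttles, transcription factors of subunit genes and ubiquitin ligases), 48 were in the table. By limma 0 of 48 passed the zone test, where 0% of all genes did. At an unadjusted p under 0.05 there were 2 of 48 by zone, where 7% of all genes were. The age test was passed by 0 of 48 and by 2.5% of all genes. At an unadjusted p under 0.05 there were 6 of 48 by age, where 18.3% of all genes were. At P2, 0 of 48 were past 2-fold higher or lower in all comparisons, where 5.68% and 3.41% of all genes were. In knockout cones of both zones 1 of 48, Ublcp1, was lower, where 3.65% of all genes were. Ublcp1 averaged 126 and 164 CPM in 2-month controls and 56.6 and 61.9 CPM in knockout cones. P60 control cones had 45.99 and 45.39 CPM of it, below the knockout. Ublcp1 is a phosphatase that acts on the proteasome. Against 2-month cones, 17 of 47 were lower in rods by the size rule, where 42.1% of all genes were. The lower ones included Nfe2l1, the transcription factor of the proteasome bounce-back response, at 3.08 CPM in rods and 51.7 and 32.6 CPM in cones. Also lower was Txnl1, a thioredoxin bound to the cap, at 0 in every rod and at 110 and 67.1 CPM in cones. Nfe2l1 and Txnl1 reached the filter only through the cones, so their calls carry no weight. Pomp, the maturation factor of the core, was at 155 CPM in rods and 73.9 and 91.8 CPM in cones.

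The regions of the series were set against the genes' RefSeq intervals on the same build (GRCm38). For the open regions at P30, sampled in control and knockout, the direction is given here only by the list names, induced or suppressed. Receptor-bound regions of E18 retina, from a tagged receptor (ThrbHAB:BirA), lay within 50 kb of 12 of 43 proteasome genes, where 39% of all genes had one. Regions listed as induced in P30 cones lay within 50 kb of 17 of 43, where 35.5% of all genes had one, and suppressed regions within 50 kb of 1 of 43 (Psmd13), where 13.2% of all genes had one. No receptor-bound region overlapped a member's gene interval, where 14.7% of all genes had one. Within 10 kb, 2 of 43 had a receptor-bound region, where 21.2% of all genes had one: Psmb7 (chromosome 2, 38584662 to 38584961, 3085 bases away) and Psmd13 (chromosome 7, 140902102 to 140902401, 3460 bases away). Within 10 kb, 7 of 43 had an induced region, where 17.7% of all genes had one. An induced region lay inside the interval of Psmg2, and others 65 bases from Psme3 (chromosome 11, 101323602 to 101324114) and 918 bases from Psmd11 (chromosome 11, 80474166 to 80474428). The lists carry no values per sample, and the intervals include introns and UTRs without saying which feature a region lies near.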

How the data were processed

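The RNA table was deposited by the authors in CPM over each whole library. The submitters' processing notes name STAR 2.7.3a, bcl2fastq 2, MACS2 2.2.7.1 and the build GRCm38/mm10. For the counter and the annotation, this is not given in the sources used here. All 430 columns were used, and 100% of values were whole multiples of 1 read (tolerance 0.1 reads), with 8.98e+05 to 3.26e+07 reads per library. Libraries 03 and 14 of P60 superior cones (Pearson r 0.996, next pair 0.467) were averaged as 1 cell, leaving 429 cells. Group means as log2(mean CPM + 1) were tested with limma 3.58.1 (R 4.3.3) over the 10136 genes whose mean reached 5 CPM, with Benjamini-Hochberg adjustment and a threshold of 0.05. Zones were tested with the collection as a block, because both zones of a collection share age, and ages on the slope of log2 days with 2 months taken as 60 days. Knockout, P2 and rod comparisons used the 2-fold rule without a test. edgeR 4.0.16 and DESeq2 1.42.0 on recovered reads were alternatives. Methods were checked on simulated data. The zone by age test used P2 and P8 against the rest. Intervals cover counting error only, at 95%. RefSeq GRCm38.p6 names matched 10149 of 10390 gene IDs. Named genes were every called member, the highest and lowest per role, the catalytic subunits, activators, Psmd14 and Psmf1, with further members chosen after their values were seen. The members and lists were chosen with earlier results of these data known. The region lists' p-value column, deposited by the authors, was not used. Pathway genes higher in rods are not reported here.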

Additional observations from a re-analysis of the deposited data

Results flagged for a closer look

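Psmb6, a catalytic subunit, stood apart because its zone difference had 1 sign in both early collections and the opposite sign in all 3 later ones. Its superior minus inferior log2 difference averaged 0.29 at P2 and P8 and -0.48 at P21, P60 and 2 months, a difference of -0.765. Tested over all genes with limma on the 5 zone differences, it did not pass (SE 0.43, unadjusted p = 0.137, limma adjusted p = 0.904), and 0 of 10136 genes did (523 at an unadjusted p under 0.05). The same split of signs was seen in 1 of 42 proteasome genes and in 7.41% of all genes.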

How the results depend on the processing

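No proteasome gene passed the zone or the age test with a collection left out (count 0 in each), averaged logs, pooled reads, medians set equal, another pseudocount (0.1, 5) or another filter (none, 20 CPM). The same held for the zone test by edgeR and DESeq2, and for the age test in 1 zone alone or early against late. Without the replicate block the zone count of members was also 0. Over all genes, zone calls numbered 0, 2 without the block, 16 with averaged logs, 236 by DESeq2 and 0 by edgeR. Age calls numbered 253, but 1001 with averaged logs, 147 at a pseudocount of 0.1, 129 without P60, 1 without P2, 2 without 2 months, 19 for early against late and 125 and 31 in superior and inferior groups alone. The only numbers that libraries share across groups name cells, so they pair nothing. Leaving out a collection moved the median zone difference between 0.0177 and 0.147 and the median age slope between -0.107 and -0.033. With log values averaged over cells these medians were 0.274 and -0.196, and for P2 and P8 against the later collections the age median was -0.292. Zone signs turned for Psma7 (0.274), Psmc1 (0.169) and Psmd9 (0.0322) with averaged logs, and when 1 collection was left out for Psmf1 (range -0.6695 to 0.0107, positive without P21) and Psma7 (-0.2231 to 0.0846, positive without P60). Age signs turned for Psmd14 (-0.00844) and Psme2 (-0.141) with averaged logs, for Psma6 (0.00578), Psmb1 (0.022) and Psmf1 (0.063) with medians set equal, for Psma3 (range -0.0439 to 0.3445) and Psme2 (-0.0786 to 0.2457) without 2 months, for Psmf1 in superior groups (0.0987) and for Psmb1 in inferior groups (0.00924). In the knockout 3 genes were lower with averaged logs (2.95%) and 0 without the highest cell (4.96%). Against P60, 0 were lower and 3 higher in the knockout (4.9% and 5.99%), with Psme4 at 1.30. Psme4 reached the filter there only through the knockout, so its call carries no weight. For P2, 4 genes were higher with averaged logs (Psmb4, Psmb5, Psmc3 and Psmd6, where 9.76% of all genes were), and 1 was lower without 2 months as a reference. In rods, 0 were higher and 33 lower with averaged logs (1.11% and 41.3% of all genes), and 10 and 4 with medians set equal (21.6% and 33.7%). Without the highest cell they were 1 and 15 (4.1% and 57.3%, with Psme1 at -1.64). At 4-fold they were 1 and 3 (2.33% and 31.9%), and 4 were higher against P60 (9.9%). Calls of Psmd11, Psme2b, Psme4 and Psmg3 rest on a filter reached only through cones, and those of Psme1 on rods, so they carry no weight. Receptor-bound regions within 10 kb or overlapping numbered 2 and 0 (21.2% and 14.7% of all genes), induced 7 and 1 (17.7% and 11.9%), suppressed 0 and 0 (7.69% and 6.24%). The cause was not tested, except that smaller windows hold fewer regions. Settings with medians set equal or the highest cell left out were chosen after seeing the data. Each group is 1 collection, and means rest on few cells for genes under about 50 CPM.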
